A study of Mus musculus with 4 samples.

Results

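The genes described here are 10 genes by which hepatocytes make, conjugate and move bile acids: Cyp7a1, Cyp8b1, Cyp27a1, Cyp7b1, Baat, Abcb11, Slc10a1, Slco1a1, Slco1b2 and Nr0b2. They were chosen by gene name, and each had 1 entry among the 35275 genes of the read count table. All 10 reached 1 count per 1000000 (CPM, the reads of a gene per 1000000 reads of a library) in at least 1 liver library, as did 12180 genes in all. Cyp7a1 stood apart from the other members. Its level was nearly the same in vehicle sedentary, vehicle trained and fibril sedentary livers. It was about 3-fold lower in the livers of mice given both fibrils and exercise. Cyp8b1 was lower in the fibril livers, and Baat was lower in the trained livers. The member transporters Abcb11, Slc10a1, Slco1a1 and Slco1b2 differed little.

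Bile acids are made from cholesterol in hepatocytes. The classic pathway starts with CYP7A1, the rate-limiting 7α-hydroxylase, and CYP8B1 then directs intermediates to cholic acid, whereas the alternative pathway starts with CYP27A1 and continues with CYP7B1. BAAT joins bile acids to taurine or glycine, ABCB11 (the bile salt export pump) secretes them into the canaliculus, and SLC10A1, SLCO1A1 and SLCO1B2 take them up from the blood. NR0B2, also called SHP, is a nuclear receptor without a DNA-binding domain that is induced through the bile acid receptor FXR and represses Cyp7a1 and Cyp8b1.

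The study asked how interval training (IT) on a treadmill acts on AApoAII amyloidosis, in which misfolded apolipoprotein A-II deposits as fibrils in many organs. Livers came from 16 female mice in 4 groups: VS (vehicle, sedentary), VI (vehicle, IT), FS (AApoAII fibrils, sedentary) and FI (AApoAII fibrils, IT). All mice carried the amyloidogenic Apoa2c allele and were 26 weeks old after a training period of 16 weeks. The sample labels give the strain as AKR/J with an Apoa2c congenic genotype, and the study's methods give R1.P1-Apoa2c. Amyloidosis was induced by injecting fibrils, so that its onset was seeded and not spontaneous. The paper reports that IT strongly reduced amyloid deposition in the liver. FS and FI livers thus shared the injection but need not have shared the amyloid load. In the contrasts and the model below, amyloidosis stands for the fibril injection. Reads counted to genes numbered 23442935 (VS), 24524287 (VI), 28814802 (FS) and 24801185 (FI). Tissue of 4 mice was pooled per group and sequenced as 1 library. The spread between mice was therefore not measured, and the 95% intervals given with ratios cover the counting of reads only.

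The labelled tissue was checked against marker genes. Albumin alone reached 119865 to 135778 CPM, and 19 hepatocyte markers summed to between 183063 CPM in VS and 205505 CPM in FI. The ductal marker Krt19 was at 0.61 to 1.35 CPM. Skeletal muscle markers summed to 79.6 (VS), 10.7 (VI), 1.15 (FS) and 1.07 CPM (FI), so that the VS library held the most muscle RNA. Macrophage markers summed to 360.4 (VS), 422 (VI), 570 (FS) and 545 CPM (FI). In bulk liver, fewer cells of a type and less RNA per cell cannot be told apart.

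**Figure D1:**
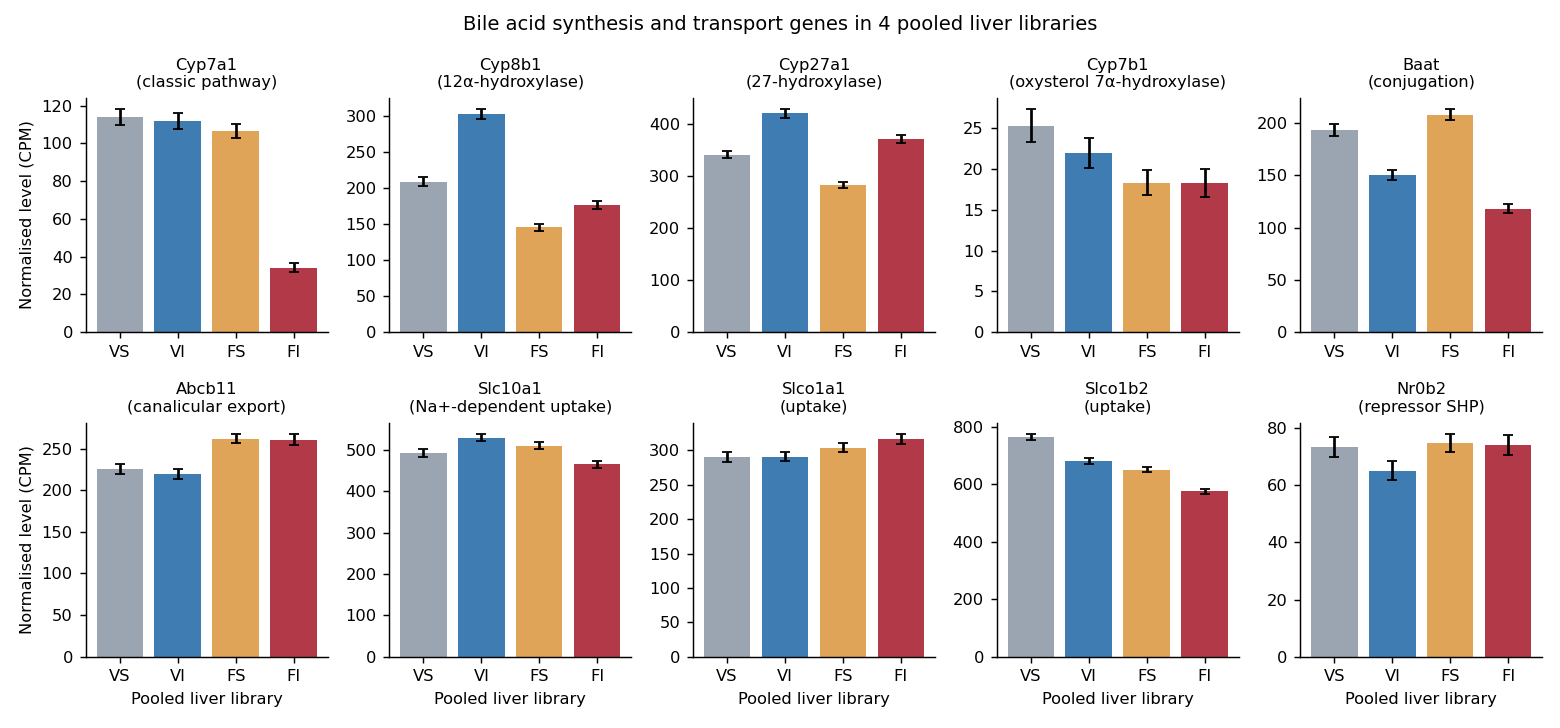
Normalised level (CPM, axes from 0) of each of the 10 genes in the VS, VI, FS and FI libraries. Bars are 1 pooled library each and error bars are 95% Poisson intervals of the read count. Cyp7a1 stood at 34.1 CPM in FI against 107 to 114 CPM in the other libraries.

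Cyp7a1 (ENSMUSG00000028240, mm10 chromosome 4, 6265612 to 6275633, minus strand, 6 exons) was counted with 2686 (VS), 2720 (VI), 3147 (FS) and 826 reads (FI). Its level was 114 (VS), 112 (VI), 107 (FS) and 34.1 CPM (FI). The VS and VI libraries differed by less than the counting error, FS was slightly lower than VS, and FI alone was far below. Per gene length the level was 27.5, 26.6, 26.2 and 7.98 FPKM, the count scaled by gene length and library total, and the rank among all genes of a library went from between 1799 and 1842 to 4315. On the log2 scale, FI was -1.64 (-1.75 to -1.53) relative to FS and -1.71 (-1.82 to -1.60) relative to VI, which is 3.12-fold and 3.27-fold lower. Of the 12180 genes, 70 had a lower log2 ratio of FI to FS and 54 a lower log2 ratio of FI to VI. By contrast, the log2 ratio was -0.03 (-0.10 to 0.05) for VI relative to VS and -0.09 (-0.17 to -0.02) for FS relative to VS.

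Cyp8b1 (ENSMUSG00000050445, chromosome 9, 121914356 to 121916305, minus strand) is a gene of 1 exon that encodes the sterol hydroxylase of cholic acid synthesis. Its level was 209 (VS), 303 (VI), 146 (FS) and 177 CPM (FI). Each fibril library was below the vehicle library of the same activity, and each IT library was above its sedentary counterpart. The log2 ratio was -0.52 (-0.58 to -0.46) for FS to VS and -0.78 (-0.83 to -0.72) for FI to VI. For IT it was 0.53 (0.48 to 0.59) in vehicle livers and 0.28 (0.22 to 0.34) in fibril livers.

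Cyp27a1 (ENSMUSG00000026170, chromosome 1, 74713574 to 74737892, plus strand, 9 exons) encodes the mitochondrial enzyme that opens the alternative pathway. Its level was 342 (VS), 421 (VI), 283 (FS) and 371 CPM (FI). The order of the libraries was nearly that of Cyp8b1, except that FI lay above VS. Its log2 ratio for IT was 0.30 (0.26 to 0.34) in vehicle livers and 0.39 (0.35 to 0.43) in fibril livers. For amyloidosis it was -0.27 (-0.32 to -0.23) in sedentary livers and -0.18 (-0.22 to -0.14) in trained livers.

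Because Cyp8b1 and Cyp27a1 differed in the same direction in each of the 4 contrasts, their promoters are shown, together with that of the repressor gene Nr0b2. RefSeq promoters on GRCm38.p6 were matched for 7 of the 10 members, all but Cyp7a1, Cyp7b1 and Baat. The stretches below are the 250 bases before the RefSeq start, read 5′ to 3′ on the strand of the gene, with motif matches in capitals. The Cyp8b1 stretch lies at chr9:121916306-121916555 (minus strand), the Cyp27a1 stretch at chr1:74713285-74713534 (plus strand) and the Nr0b2 stretch at chr4:133553126-133553375 (plus strand).
Cyp8b1: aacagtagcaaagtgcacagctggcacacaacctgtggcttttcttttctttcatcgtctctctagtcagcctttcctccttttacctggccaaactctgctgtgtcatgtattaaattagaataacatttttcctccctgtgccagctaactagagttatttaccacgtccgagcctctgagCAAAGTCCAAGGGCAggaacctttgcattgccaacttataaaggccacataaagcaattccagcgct
Cyp27a1: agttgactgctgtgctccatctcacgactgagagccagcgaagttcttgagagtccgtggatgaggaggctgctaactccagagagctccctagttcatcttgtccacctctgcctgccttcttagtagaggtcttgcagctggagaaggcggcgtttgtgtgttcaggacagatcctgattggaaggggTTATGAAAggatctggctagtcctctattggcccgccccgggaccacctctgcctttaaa
Nr0b2: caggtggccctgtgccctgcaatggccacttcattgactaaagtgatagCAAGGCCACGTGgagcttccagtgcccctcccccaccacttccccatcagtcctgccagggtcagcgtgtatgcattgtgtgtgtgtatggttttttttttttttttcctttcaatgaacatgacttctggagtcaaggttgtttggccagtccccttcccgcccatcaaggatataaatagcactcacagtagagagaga
The letters searched, on both strands, were AGGTCA (a core of many nuclear receptor sites) and CAAGGNCA (the site of LRH-1, product of Nr5a2). The others were CAAAGTCCA (a site of HNF4), CACGTG (the E-box) and TTATGNAA, where N stands for any base. TTATGNAA is a loose form of the D-box bound by DBP and its relatives. In Cyp8b1 the HNF4 letters began 67 bases before the start and overlapped the LRH-1 letters, which began 60 bases before it. In Cyp27a1 the capitals are TTATGAAA, a match to the loose D-box letters that began 60 bases before the start. In Nr0b2 the LRH-1 letters began 201 bases before the start and overlapped an E-box that began 195 bases before it. Among 32851 promoter stretches of the same length, 0.384% held the HNF4 letters, 5.53% the LRH-1 letters and 3.07% the loose D-box letters. The E-box was held by 6.02% and AGGTCA by 14.0%. AGGTCA occurred in the stretches of Abcb11, Slco1b2 and Slco1a1 and in none of the 3 shown. Slc10a1 held it in the stretch at chr12:80968080-80968329 but not in its other stretch at chr12:80968706-80968955. A match describes letters only, since binding was not measured.

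Cyp7b1 (ENSMUSG00000039519, chromosome 3, 18071950 to 18243338, minus strand, 6 exons) encodes the oxysterol hydroxylase that follows CYP27A1. It had the lowest CPM of the 10 genes, at 25.2 (VS), 21.9 (VI), 18.3 (FS) and 18.3 CPM (FI). Both fibril libraries were below both vehicle libraries, and FS and FI did not differ beyond counting error. The log2 ratio was -0.46 (-0.64 to -0.29) for FS to VS and -0.26 (-0.45 to -0.08) for FI to VI.

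The balance of the 4 hydroxylase genes was compared per gene length within each library. The ratios to Cyp7a1 share its low FI level as denominator, so they are not separate observations. The FPKM of Cyp8b1 was 3.94 times that of Cyp7a1 in VS, 5.81 times in VI, 2.92 times in FS and 11.1 times (10.28 to 11.95) in FI. The FPKM of Cyp27a1 was 6.63 times that of Cyp7a1 in VS, 8.32 times in VI, 5.86 times in FS and 24.0 times (22.3 to 25.8) in FI. Cyp7b1 had 0.427, 0.378 and 0.331 times the FPKM of Cyp7a1 in VS, VI and FS, and 1.03 times (0.916 to 1.16) in FI. Thus the first enzyme of the classic pathway was above Cyp7b1 in the VS, VI and FS libraries and level with it in FI. Of the summed FPKM of Cyp7a1, Cyp8b1, Cyp27a1 and Cyp7b1, Cyp7a1 made up 8.33% (VS), 6.45% (VI), 9.89% (FS) and 2.70% (FI). The sum itself was 329.5 (VS), 412 (VI), 265 (FS) and 296 FPKM (FI).

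**Figure D2:**
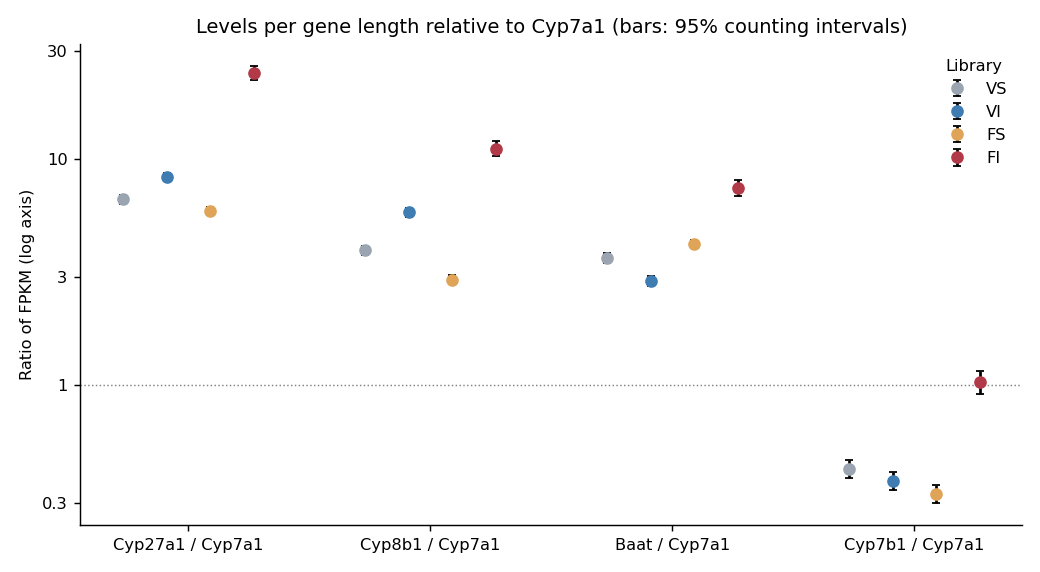
Ratio of the FPKM of Cyp27a1, Cyp8b1, Baat and Cyp7b1 to the FPKM of Cyp7a1 within each library, on a log axis. Points are 1 pooled library each, bars are 95% counting intervals, and the dotted line marks equal levels. The FI point is the highest in each of the 4 ratios, at 24.0 for Cyp27a1, 11.1 for Cyp8b1, 7.43 for Baat and 1.03 for Cyp7b1. The 4 ratios share the low Cyp7a1 level of FI as denominator and are not separate observations. Of the numerators, Baat (59.3 FPKM) and Cyp7b1 (8.23 FPKM) were themselves lowest in FI, and Cyp27a1 and Cyp8b1 in FS.

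Baat (ENSMUSG00000039653, chromosome 4, 49489422 to 49506557, minus strand, 4 exons), the gene of the conjugating enzyme, was at 193 (VS), 150.4 (VI), 208 (FS) and 118 CPM (FI). Both IT libraries were below both sedentary libraries. The log2 ratio for IT was -0.36 (-0.42 to -0.30) in vehicle livers and -0.82 (-0.88 to -0.75) in fibril livers. Amyloidosis gave 0.11 (0.05 to 0.16) in sedentary livers and -0.35 (-0.42 to -0.28) in trained livers. The coenzyme A ligase Slc27a5, which activates bile acids before BAAT acts on them, was at 1036 (VS), 1014 (VI), 813 (FS) and 831 CPM (FI) and was lower in both fibril libraries than in both vehicle libraries.

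Abcb11 (ENSMUSG00000027048, chromosome 2, 69238282 to 69342616, minus strand, 29 exons), the export pump, was at 226 (VS), 219 (VI), 262 (FS) and 260.5 CPM (FI). Both fibril libraries were above both vehicle libraries, with a log2 ratio of 0.21 (0.16 to 0.27) in sedentary and 0.25 (0.20 to 0.30) in trained livers. With IT it was -0.04 (-0.10 to 0.01) and -0.01 (-0.06 to 0.04), within counting error in both. The gene overlaps the antisense gene Gm13613 and the pseudogene Gm13614 on the other strand, and the strand setting of the counting was not given in the sources used here, so reads from them cannot be told apart.

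Slc10a1 (ENSMUSG00000021135, chromosome 12, 80953185 to 80968079, minus strand, 5 exons), the sodium-dependent uptake carrier also known as NTCP, was at 494 (VS), 531 (VI), 511 (FS) and 466 CPM (FI). The whole range was 1.14-fold, with VI highest and FI lowest. Slco1b2 (ENSMUSG00000030236, chromosome 6, 141629518 to 141686646, plus strand, 16 exons), a sodium-independent carrier of bile acids and drugs, was at 765 (VS), 683 (VI), 651 (FS) and 576 CPM (FI). It was highest in VS and lowest in FI, and its 4 log2 ratios lay between -0.25 and -0.16. Slco1a1 (ENSMUSG00000041698, chromosome 6, 141907282 to 141946962, minus strand, 14 exons), a carrier of the same family, was at 290.1 (VS), 291 (VI), 304 (FS) and 317 CPM (FI). This was the narrowest range of the 10 genes, at 1.09-fold, against a median of 1.39-fold over the 12180 genes. Slco1a1 lies 220636 bases from Slco1b2 and has close relatives in the mouse genome, so reads may be split among them and its level is uncertain to that extent.

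Per gene length, the 3 uptake carriers summed to 605 (VS), 594 (VI), 594 (FS) and 521 FPKM (FI), of which Slc10a1 was 49.1% to 53.0%. The FPKM ratio of Slco1b2 to Slco1a1 was 3.11 (VS), 2.77 (VI), 2.53 (FS) and 2.15 (FI), each outside the counting interval of the next. The FPKM ratio of the uptake carrier Slc10a1 to the export pump Abcb11 was 6.57 (VS), 7.27 (VI), 5.86 (FS) and 5.37 (FI), so that it was lower in both fibril libraries.

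Nr0b2 (ENSMUSG00000037583, chromosome 4, 133553376 to 133556536, plus strand, 2 exons) was at 73.3 (VS), 65.1 (VI), 74.8 (FS) and 74.0 CPM (FI). The VI library was the lowest, and VS, FS and FI did not differ beyond counting error. Where Cyp7a1 was low, in FI, the log2 ratio of Nr0b2 was -0.02 (-0.11 to 0.07) relative to FS and 0.18 (0.09 to 0.28) relative to VI.

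The members beyond a 2-fold difference were counted beside the share over all genes. Counts of 0 or 1 among 10 members cannot be told apart from such shares. In VI relative to VS, 0 of the 10 passed 2-fold, where 3.44% of the 12180 genes did so. In FI relative to FS it was 1 of 10, Cyp7a1, against 4.28% of all genes in either direction and 2.53% lower. FS relative to VS had 0 of 10, against 5.8% of all genes. FI relative to VI again had 1 of 10, Cyp7a1, against 4.54% of all genes in either direction and 1.95% lower. The median absolute log2 ratio of the members was 0.17, 0.15, 0.16 and 0.25 in these 4 contrasts, and that of all genes was 0.20, 0.21, 0.25 and 0.22. The median member thus differed less than the median gene in the first 3 contrasts and slightly more in the last. The VS library enters both contrasts made against it, and the FI library both contrasts in which it is the numerator, so each of these pairs is not independent. Both contrasts in which Cyp7a1 passed were made without the VS library.

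**Figure D3:**
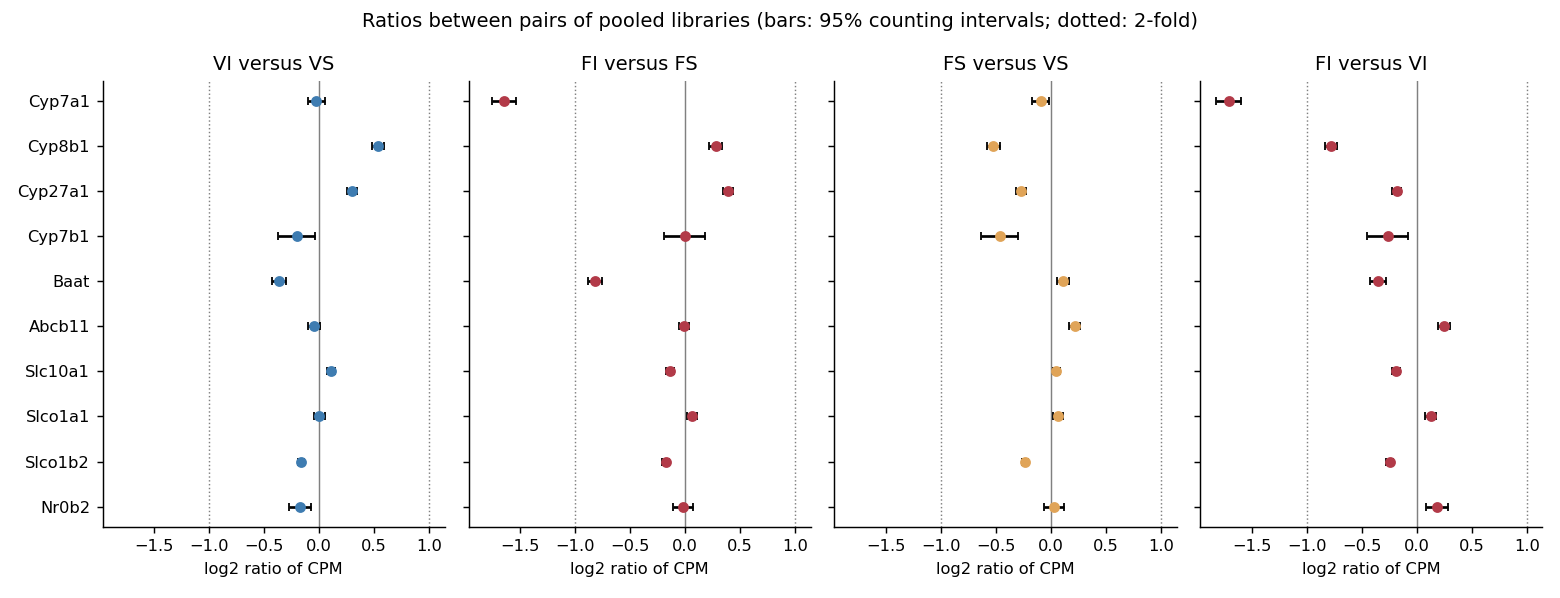
Log2 ratio of CPM of the 10 genes in the 4 contrasts between libraries. Points are ratios between 2 pooled libraries, bars are 95% counting intervals and dotted lines mark 2-fold. Cyp7a1 lies beyond the dotted line at -1.64 in FI versus FS and at -1.71 in FI versus VI, and no other point does.

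An additive model with 1 term for amyloidosis and 1 for IT was fitted to the 4 libraries over 11760 genes, with edgeR's quasi-likelihood test and Benjamini-Hochberg adjusted p-values. Its 1 residual degree of freedom is the departure of FI from both single changes, so genes with such a departure get a large error. That error also borrows from the departures of other genes (median prior degrees of freedom 6.83). The edgeR SE is the size of the log2 change divided by the square root of the test's F statistic. No spread between mice enters these SE or p-values. For amyloidosis 1 of the 10 members was called, against 4.59% of all genes: Cyp8b1 fell, with a log2 change of -0.65 ± 0.12 (SE) and an adjusted p of 0.027 by edgeR's quasi-likelihood test. DESeq2 and limma-voom in the same design also called Cyp8b1 and no other member, whereas the call was lost when amyloidosis was the sole term (edgeR adjusted p 0.24). Cyp7b1 had an amyloidosis term of -0.36 ± 0.13 (SE) with an edgeR adjusted p of 0.17. For IT 0 of the 10 members were called by edgeR, against 1.34% of all genes, and 0 by DESeq2 and by limma-voom. Before adjustment 3 members were below 0.05 for IT in edgeR, as were 1710 of the 11760 genes. These 3 were Baat (-0.59 ± 0.14 (SE), edgeR adjusted p 0.11), Cyp8b1 (0.41 ± 0.12 (SE), adjusted p 0.19) and Cyp27a1 (0.35 ± 0.12 (SE), adjusted p 0.25). Cyp7a1 had edgeR terms of -0.89 ± 0.45 (SE) for amyloidosis and -0.82 ± 0.45 (SE) for IT, with adjusted p of 0.37 and 0.52. Without FI its log2 ratios were -0.09 (FS to VS) and -0.03 (VI to VS), so both terms hold part of the low FI value. What the terms leave over is the departure of FI, which enters the error.

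The response to IT was next compared between vehicle and fibril livers, as the log2 ratio of FI to FS minus that of VI to VS. For Cyp7a1 this difference was -1.62 (-1.75 to -1.48), and 179 of the 12180 genes had a larger one in size. Adding both single differences to VS would give 104.5 CPM of Cyp7a1 in FI, where 34.1 CPM were counted. For Baat the difference was -0.46 (-0.55 to -0.37), for Cyp8b1 -0.25 (-0.33 to -0.17) and for Slc10a1 -0.24 (-0.29 to -0.19). For the other 6 members it lay between -0.01 and 0.20. The median size over all genes was 0.24, and 5.82% of all genes differed by more than 1, as did 1 of the 10 members. With 1 library per group the difference has no test.

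**Figure D4:**
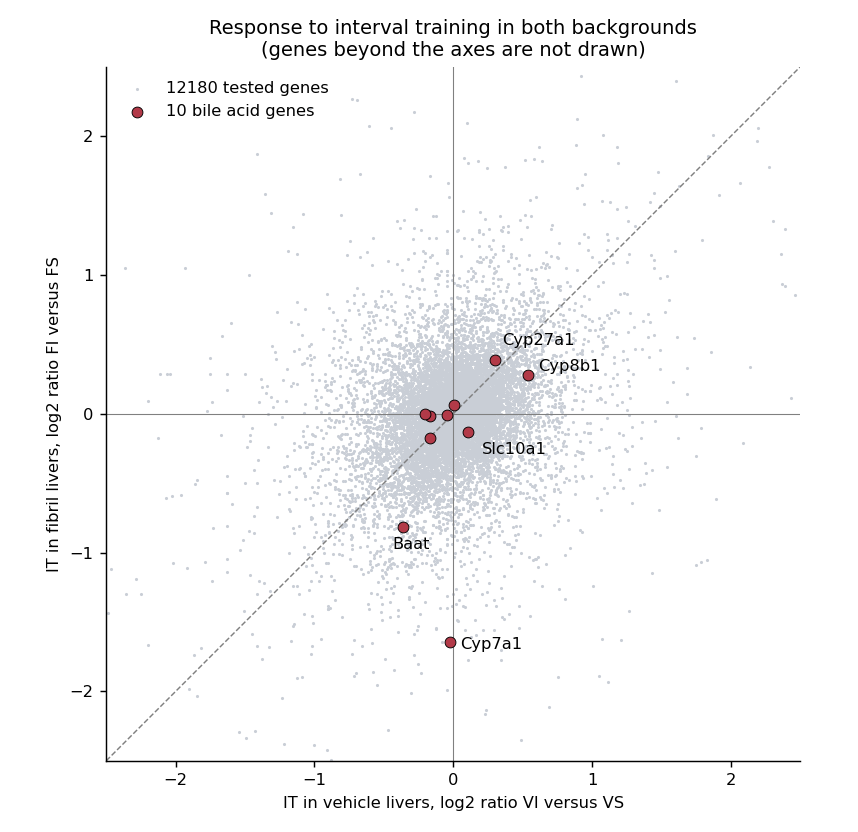
Log2 ratio for IT in fibril livers (FI versus FS, vertical axis) against vehicle livers (VI versus VS, horizontal axis), with 12180 tested genes as grey points, the 10 members as red points and equality as a dashed line. Cyp7a1 lies at -0.03 on the horizontal and -1.64 on the vertical axis, while Cyp8b1 and Cyp27a1 are above 0 on both axes and Baat is below 0 on both.

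The wider pathway was described with 3 further lists. Of 15 other synthesis genes 14 were tested, and their median log2 ratio was -0.36 in FS relative to VS and -0.26 in FI relative to VI, with 11 of 14 lower each time. In VI relative to VS the median was -0.11 and in FI relative to FS 0.01, where the median over all genes was between 0.00 and 0.02 in every contrast. In the additive model 2 of the 14 rose and 1 fell with amyloidosis, and 1 rose with IT. Over all genes 2.64% rose and 1.96% fell with amyloidosis, and 0.672% rose and 0.663% fell with IT. Cyp39a1, another oxysterol hydroxylase, was at 46.7 (VS), 81.1 (VI), 68.2 (FS) and 121 CPM (FI), and rose with both factors (IT 0.81 ± 0.11 (SE), edgeR adjusted p 0.018, amyloidosis 0.56 ± 0.11 (SE), adjusted p 0.029). Acox2, a peroxisomal oxidase of side-chain shortening, rose with amyloidosis by 0.54 ± 0.12 (SE) (edgeR adjusted p 0.044). Cyp46a1, the cholesterol 24-hydroxylase best known from brain, was at 11.4 (VS), 14.4 (VI), 5.62 (FS) and 5.37 CPM (FI), and fell with amyloidosis by 1.22 on the log2 scale (edgeR adjusted p 0.012).

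Of 15 other transport genes 13 were tested, with median log2 ratios of -0.50 in FS relative to VS and -0.32 in FI relative to VI, and of 0.07 and 0.26 for IT in vehicle and fibril livers. In the additive model 1 rose and 4 fell with amyloidosis (4.59% of all genes were called in either direction). For IT 0 were called by edgeR (1.34% of all genes), and 2 were below 0.05 before adjustment, as were 1710 of the 11760 genes. The riser was Slc10a2, the bile acid carrier of ileum and bile duct epithelium, at 3.56 (VS), 2.09 (VI), 8.50 (FS) and 9.80 CPM (FI) (log2 change 1.71 ± 0.26 (SE), edgeR adjusted p 0.014). Its level was low throughout, and 11 cholangiocyte markers summed to 74.9 (VS), 47.2 (VI), 35.2 (FS) and 35.1 CPM (FI), of which 5 passed the filter of 1 CPM. Their part in the level of Slc10a2 was not tested. Abcb1a, a multidrug pump of the canaliculus, was at 21.2 (VS), 24.3 (VI), 10.5 (FS) and 8.43 CPM (FI) and fell with amyloidosis (-1.27 ± 0.17 (SE), edgeR adjusted p 0.0093). Abcg5 and Abcg8, which together secrete cholesterol into bile, both fell with amyloidosis (-0.55 ± 0.11 (SE), edgeR adjusted p 0.037, and -0.54 ± 0.12 (SE), adjusted p 0.045). Their IT terms were 0.57 ± 0.11 (SE) and 0.64 ± 0.12 (SE), with edgeR adjusted p of 0.061 and 0.052, and passed under 3 and 4 of 7 alternatives. Ephx1, an epoxide hydrolase, fell with amyloidosis by 0.67 on the log2 scale (edgeR adjusted p 0.027). Slc51a, a subunit of the basolateral bile acid exporter, had 0 reads in each library, which allows up to 0.102 to 0.127 CPM. The 9 genes called for amyloidosis in the wider lists had edgeR adjusted p of 0.076 to 0.58 when it was the sole term.

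Of 15 regulators 14 were tested, with medians of -0.11 in FS relative to VS and 0.04 in FI relative to VI. In the additive model 1 fell with amyloidosis, against 1.96% of all genes, and 0 were called for IT by edgeR, against 1.34%. Before adjustment 2 were below 0.05 for IT, as were 1710 of the 11760 genes. The one that fell was Nr1i3, the xenobiotic receptor CAR, at 217 (VS), 169 (VI), 99.2 (FS) and 88.8 CPM (FI) (-1.03 ± 0.12 (SE), edgeR adjusted p 0.0065). Nr1h4, which encodes FXR, was at 107 (VS), 118 (VI), 94.98 (FS) and 88.5 CPM (FI). Nr5a2, which encodes LRH-1, was at 29.9 (VS), 26.8 (VI), 35.7 (FS) and 39.7 CPM (FI), and its amyloidosis term was not called (edgeR adjusted p 0.11). Hnf4a was at 728 (VS), 836 (VI), 792 (FS) and 1014 CPM (FI). The receptor pair of the gut hormone FGF15, Fgfr4 and Klb, had log2 ratios of -0.21 and -0.20 in FI relative to FS and of -0.16 and -0.14 in FI relative to VI.

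**Figure D5:**
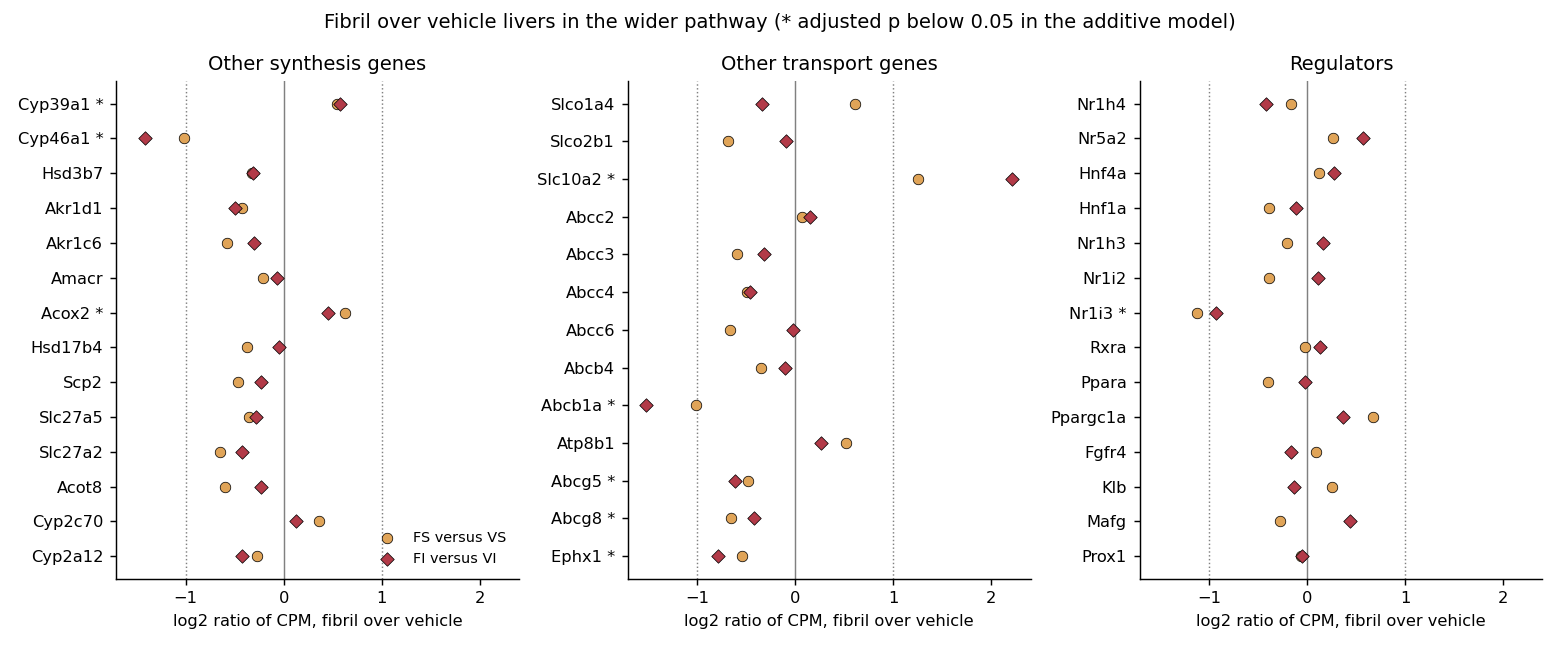
Log2 ratio of CPM in fibril over vehicle livers for other synthesis genes, other transport genes and regulators, with circles for FS versus VS and diamonds for FI versus VI. Each point is 1 pair of pooled libraries, dotted lines mark 2-fold, and asterisks mark genes with an edgeR adjusted p below 0.05 for amyloidosis. Most synthesis and transport genes lie left of 0, with 11 of 14 and 9 of 13 lower in FS versus VS, while Slc10a2 lies beyond 2-fold to the right in both contrasts.

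Other gene groups differed between the same libraries. Cholesterol synthesis genes, whose end product is the substrate of CYP7A1, had a median log2 ratio of -1.11 in FI relative to FS (22 of 22 lower) and of -0.57 in VI relative to VS (20 of 22 lower). In the additive model 9 of the 22 fell with IT, against 0.663% of all genes. Acute phase genes summed to 23888 (VS), 33132 (VI), 52758 (FS) and 53423 CPM (FI), and 12 of 19 rose with amyloidosis, against 2.64% of all genes. Cyp8b1 was lower in both fibril libraries, where this sum was higher. Of 15 clock genes tested, 2 rose with IT (Arntl and Cry1), against 0.672% of all genes, and 2 fell (Dbp and Nr1d1), against 0.663%. Dbp was at 102 (VS), 22.2 (VI), 80.9 (FS) and 25.5 CPM (FI), and Arntl at 1.44, 6.65, 1.12 and 4.71 CPM. Cyp7a1 is known for a daily rhythm. Pericentral hepatocyte markers, whose zone is also that of Cyp7a1, summed to 13358 (VS), 11689 (VI), 7928 (FS) and 10813 CPM (FI), and periportal markers to between 5871 and 7404 CPM. Stellate cell markers summed to 260 to 346 CPM, endothelial markers to 280 to 343 CPM, lymphocyte markers to 3.45 to 5.84 CPM and pancreas markers to 12.8 to 23.2 CPM. Female-biased liver genes summed to between 2234 CPM in FI and 3324 CPM in VS, and male-biased genes to between 516 and 716 CPM. The part of any of these in the levels of the bile acid genes was not tested.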

How the data were processed

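RNA of liver tissue pooled from 4 mice per group was sequenced on an Illumina instrument. The authors deposited unnormalized read counts, 1 value for each gene in each library. They also deposited FPKM values computed by the authors from the counts, and dividing the deposited counts by gene length and by library total gave the same values. The submitters' processing notes name fastp 0.23.2, STAR 2.5, HTSeq 0.6.1 and the mm10 genome. The sources used here give neither the strand setting of the counting nor the dispersion that the authors used in edgeR for groups of 1 library.

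Library sizes were scaled by TMM (edgeR 4.0.16, R 4.3.3). For the 12180 genes that reached 1 CPM in any library, 0.5 counts were added before log2 ratios were formed, and their 95% intervals are exact (Clopper-Pearson, conditional on the summed count of a pair). An absolute log2 ratio above 1 was counted as 2-fold. The additive model (3 coefficients, 1 residual degree of freedom) was fitted by edgeR's robust quasi-likelihood method with Benjamini-Hochberg adjustment. It used 11760 genes with at least 1 CPM in 2 libraries. Data simulated with IT changes only and a coefficient of variation of 0.05 gave 194 of 200 changed genes and 3 false calls. The fit to the real libraries gave a coefficient of variation of 0.115, so the simulation does not show how the model performs on them. Intervals cover counting error only, and a count of 0 allows 3 counts. Genes and overlaps were taken from GENCODE M21, in which 9 of the 10 members have the same start and end (not Slc10a1), and promoters from RefSeq. Alternatives were run with limma 3.58.1 and DESeq2 1.42.0, and figures drawn with Python 3.11.15 and matplotlib 3.10.9.

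The 10 members and all 19 gene lists were chosen with earlier results of these data known. All members were described, and of the 3 wider pathway lists the genes with at least 5 CPM in 1 library and a 2-fold ratio in at least 1 contrast. Other genes of these lists were singled out after their values were seen. They were Cyp39a1, Acox2, Abcg5, Abcg8, Abcc6, Ephx1, Slc27a5, Slc51a, Slco1a4, Slco2b1, Mafg, Nr1h4, Nr5a2, Hnf4a, Fgfr4 and Klb. The clock genes Arntl, Cry1, Dbp and Nr1d1 were singled out in the same way.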

Additional observations from a re-analysis of the deposited data

Results flagged for a closer look

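Some genes differed in opposite directions in both backgrounds. For the genes from Baat to Slco1a4 below, except Slc27a5, the opposite directions held under 7 of 7 ways of scaling. Each direction rests on 1 pair of libraries, and the difference was not tested. Baat had a log2 ratio for amyloidosis of 0.11 in sedentary and -0.35 in trained livers, a difference of -0.46. Slc10a1 had a log2 ratio for IT of 0.10 in vehicle and -0.13 in fibril livers. For amyloidosis it had 0.05 in sedentary and -0.19 in trained livers, a difference of -0.24. Over the 12180 genes the median size of this difference was 0.24, and 50.2% had a larger one than Slc10a1 and 24.7% than Baat. The multidrug pump Abcb1a had a log2 ratio for IT of 0.20 in vehicle and -0.31 in fibril livers, a difference of -0.51. Nr1h4, the gene of FXR, had a log2 ratio for IT of 0.15 in vehicle and -0.10 in fibril livers, a difference of -0.25. Klb had 0.19 and -0.20, a difference of -0.39. Slc27a5 had -0.03 and 0.03, a difference of 0.064, and was opposite under 4 of 7 scalings. Slco1a4, a carrier related to Slco1a1, had a log2 ratio for IT of 0.66 in vehicle and -0.29 in fibril livers, and for amyloidosis of 0.61 in sedentary and -0.34 in trained livers, a difference of -0.94. It was at 222 (VS), 350 (VI), 338 (FS) and 277 CPM (FI). Others went the reverse way for IT, lower in vehicle and higher in fibril livers. Mafg had -0.47 and 0.24, Abcc6 -0.37 and 0.27, and Slco2b1 -0.29 and 0.30, with differences of 0.72, 0.64 and 0.59. Slc10a2 had -0.76 and 0.20, a difference of 0.96, with its ratio in fibril livers within counting error. The genes named here are not a full list.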

How the results depend on the processing

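Cyp7a1 stayed more than 2-fold lower in FI than in FS and in VI under all 7 scalings (log2 ratio -1.71 to -1.60 and -1.84 to -1.62), and of 40 ratios of the members 33 kept their sign. The other 7 belonged to Cyp7a1, Cyp7b1, Abcb11 and Slco1a1. Centring on hepatocyte markers moved the median of all genes in FI versus VI to -0.12. At a 1.5-fold threshold 2 members passed in FI versus FS, with Baat added, where 13.5% of all genes did. In FI versus VI 2 members passed, with Cyp8b1 added, where 14% of all genes did. Without a filter 2 members were called for IT (Baat, adjusted p 0.00033, and Cyp8b1, adjusted p 0.046, edgeR), as were 740 of 19939 genes. With amyloidosis as the sole term 0 members were called (Cyp8b1, edgeR adjusted p 0.24, against 2.7e-05 as the lowest over its alternatives). Before adjustment 2 members were below 0.05 in that fit, as were 1614 of 11760 genes. In the wider lists the calls of Cyp39a1, Acox2, Cyp46a1, Slc10a2, Abcb1a, Abcg5, Ephx1 and Nr1i3 held under 6 of 7 alternatives each, all but the sole term, and that of Abcg8 under 5, being lost also at 5 CPM. Over all genes, 540 were called for amyloidosis and 157 for IT by edgeR. These counts became 1519 and 740 without a filter, 406 and 91 at 5 CPM, 747 and 241 with DESeq2 size factors, and 8 and 0 with each term alone (643 for IT at an unadjusted p below 0.05). Genes beyond 2-fold numbered 419 to 706 in the 4 contrasts, against 4030 to 4567 without a filter, 144 to 353 at 5 CPM, 107 to 242 on FPKM with a pseudocount of 1, and 1418 to 2140 at 1.5-fold. Leaving out a library was not possible, as it removes a group and the residual degree of freedom. No paired analysis was possible because each group had 1 library. For lists of low genes, and for Cyp7b1 among the members, depth limits the precision, and the spread between mice is unknown for every value.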
